A study of Mus musculus with 12 samples.

Results

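The 10 genes described here encode repressors of the circadian clock: Per1, Per2, Per3, Cry1, Cry2, Nr1d1, Nr1d2, Ciart, Bhlhe40 and Bhlhe41. They were taken by symbol from a table of 56065 genes, and each symbol matched 1 gene. All 10 were expressed well enough to be tested in every comparison. Bulk RNA-sequencing was carried out on submandibular glands (SMGs), a pair of major salivary glands, from 12 mice in 4 groups of 3. The groups were female wild type, female knockout, male wild type and male knockout. Wild-type mice were C57BL/6J. Knockout mice (Pou2f3-/-) were C57BL/6J carrying the Pou2f3 em1Cbwi allele in every cell, and all mice were 8 weeks old. Pou2f3 is the transcription factor that defines tuft cells, which are rare chemosensory cells of the ducts, and the study compared glands with and without them. Each library is labelled as 1 mouse, so the p-values rest on the spread between mice within groups. That spread was estimated jointly over the 4 groups, so tests in males also draw on the female mice, and the reverse. The hour at which each gland was taken is not given in the sources used here, and a shift of collection hour between groups cannot be told apart from a difference of genotype or sex.

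The clock is a loop of transcription that runs in nearly every cell. CLOCK, or its relative NPAS2, pairs with BMAL1 and switches on genes through E-boxes. PER and CRY proteins made from those genes enter the nucleus and block that pair, while the nuclear receptors NR1D1 and NR1D2 (REV-ERB alpha and beta) repress Bmal1 through ROR elements. CIART (Chrono) and the basic helix-loop-helix factors BHLHE40 and BHLHE41 (DEC1 and DEC2) are further repressors of the same activator. In peripheral tissues of the mouse the transcripts peak in sequence, with Nr1d1, Ciart, Nr1d2, Per3 and Per1 by day and Per2, Cry2 and Cry1 in the evening or night.

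The sequences below are 30-base stretches of reference sequence (GRCm39, coding strand, 5′ to 3′) around every clock motif found in the 300 bases upstream of each member's canonical start site in Gencode M39. They are shown because the response elements tie these genes to their activators. Capitals mark the motif.
Per1, E-box, chr11:68989234-68989263: accccttaacgaCACGTGggccctcaattg
Per2, D-box, chr1:91387153-91387182: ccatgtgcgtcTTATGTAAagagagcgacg
Per3, upstream D-box, chr4:151129309-151129338: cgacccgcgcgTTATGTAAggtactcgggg
Per3, downstream D-box, chr4:151129262-151129291: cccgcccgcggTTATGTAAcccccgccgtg
Cry1, E-box variant and E-box, chr10:85020970-85020999: gaAACGTGaggtgccggtggtCACGTGggg
Cry2, E-box variant, chr2:92264563-92264592: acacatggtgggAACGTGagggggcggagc
Nr1d1, E-box variant, chr11:98666214-98666243: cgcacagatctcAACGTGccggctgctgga
Ciart, upstream E-box, chr3:95789639-95789668: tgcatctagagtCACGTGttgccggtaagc
Ciart, downstream pair of E-boxes, chr3:95789574-95789603: ggaggCACGTGcagaaccgCACGTGtctgg
Bhlhe40, E-box, chr6:108636392-108636421: ccgcgtccgggcCACGTGaagcgtcacgcc

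On both strands, the search covered the E-box with the letters CACGTG, an E-box variant that differs from it in its last base (CACGTT), the D-box TTATGTAA or TTATGCAA, the ROR element TAGGTCA and the cyclic AMP response element TGACGTCA. The variant is printed above as it reads on the coding strand. An E-box or its variant lay in 6 of the 10 windows, against 11.6% of the 21757 windows of all protein-coding genes. The E-box itself lay in 4 of 10, against 6.95% of all windows. Ciart held 3 E-boxes, and windows with 3 or more made up 0.060% of the total (13 windows). Per2 and Per3 held the D-box, which was present in 1.78% of all windows, and 2 or more D-boxes, as in Per3, lay in 0.055%. The ROR element and the cyclic AMP response element lay in none of the members' windows and in 2.70% and 1.75% of all windows. Nr1d2 and Bhlhe41 held none of these letters in this window. A match is only a description of the letters and says nothing of binding in the gland.

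The libraries held 47032175 to 67882207 estimated counts each. Pou2f3 itself had 1, 0 and 2 counts in female wild type, 0 in each female knockout, 1, 10 and 0 in male wild type and 0, 3 and 1 in male knockout, so bulk RNA was too thin in this transcript to check the genotype labels. Xist and Ddx3y followed the labelled sex in all 12 libraries, and the duct keratin Krt8 and the acinar water channel Aqp5 were present in each. Both were lower in female knockouts (Aqp5 by log2 -0.94 ± 0.16, edgeR adjusted p = 0.0011, and Krt8 by -0.45 ± 0.12, adjusted p = 0.014). In females 2 of 5 acinar, 2 of 5 duct and 3 of 4 myoepithelial markers were called lower and none higher, against 19.3% of all genes tested that were lower. Among markers of the granular convoluted tubules, the secretory ducts of this gland, Ren1 was called higher in females (log2 1.46 ± 0.44, edgeR adjusted p = 0.021), against 17.6% of genes that were higher, and Klk1 and Egf were not called, at log2 -0.03 ± 0.28 and 0.41 ± 0.32. The duct list holds Slc12a2, which acinar cells also express, and Krt8 was the one of its 4 keratins that was called. In males edgeR called 0 of the acinar, duct and myoepithelial markers (2, 1 and 0 at an unadjusted p under 0.05, and 1, 0 and 0 called by DESeq2), and Ren1, Klk1 and Egf were not called. Their part in the results below was not tested. The 20 most abundant genes took 53.2% to 79.98% of the counts. The scaling factor (TMM, trimmed mean of M values) ran from 0.625 to 0.759 in female wild type and from 0.902 to 1.03 in female knockout, so it moved with genotype in females. Some libraries stood apart in markers of neighbouring tissue. Muc19, a mucin of the sublingual gland, reached 4902 CPM (counts scaled to library size) in female knockout 3 and 7393 CPM in male wild type 3, against 1.80 to 174 CPM elsewhere. The summed level of the 4 adipocyte markers (Adipoq, Plin1, Lep, Fabp4) was 36.7 CPM in female wild type 3, 27.6 CPM in male knockout 2 and 13.0 CPM in male knockout 3, against 1.42 to 4.98 CPM elsewhere. In bulk tissue, fewer cells of a type and less RNA per cell cannot be told apart.

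In females, 9 of the 10 repressors fell in the knockout and 1, Per1, did not pass the test. The background is wide in this comparison, since 19.3% of the 17893 genes tested were called lower (edgeR quasi-likelihood test, Benjamini-Hochberg adjusted p under 0.05). The same 9 members had all 3 knockout mice below all 3 wild-type mice, which held for 24.1% of genes tested. The members' median log2 fold change was -1.12, against 0.03 over all genes. In males, 6 of 10 fell, where 0.134% of genes tested were called lower, and 7 of 10 had knockouts wholly below wild types, against 7.95% of genes. Their median log2 fold change was -0.77, against -0.04 over all genes. The male count was the fragile one, as were male calls over all genes. The members called numbered 3 without male wild type 1, without male wild type 3 or without male knockout 2. With the 2 libraries highest in Muc19 left out it was 2 (Per3 and Ciart), and with the 2 highest in adipocyte markers left out it was 1 (Per3). Leaving out either pair was chosen after seeing the data, and the female count was 9 under each. In these 5 fits the male calls over all genes fell from 42 to 13, 13, 14, 8 and 9, while the male differences of the members that lost their call stayed near their size with all libraries. The male background itself depended on the fit, with 1.68% of genes called lower without male knockout 1 (6 members), 0.562% with DESeq2 and 0.540% with no low-count filter (7 members each). For the mean difference over both sexes, 9 of 10 members were called lower (11.3% of genes tested), and the count was 9 in every setting tried. Per1 was the exception there too, at a log2 difference of 0.24 ± 0.18 (SE).

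**Figure D1:**
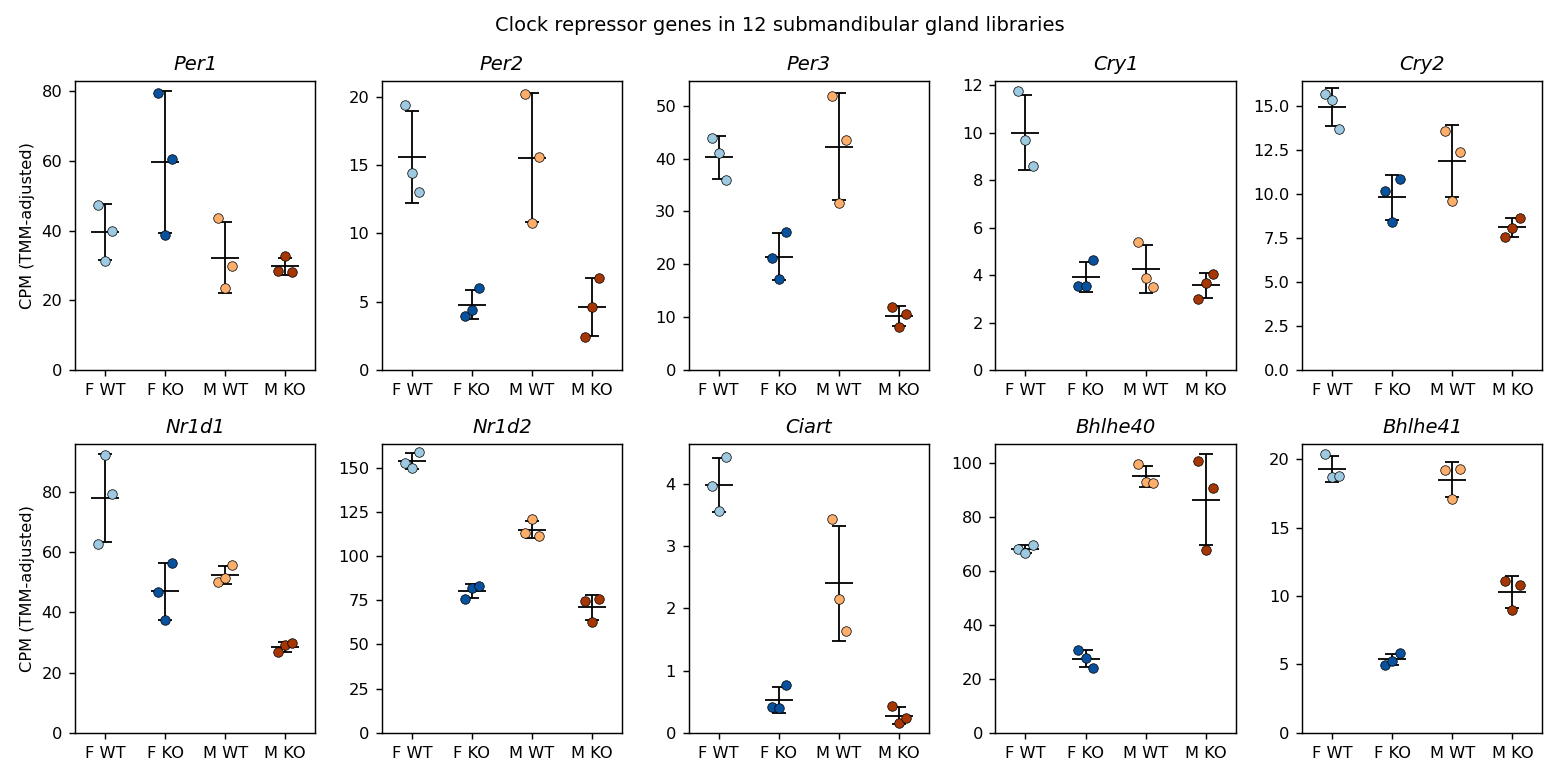
CPM (TMM-adjusted, linear axis from 0) of each member in the 12 libraries. F and M are female and male, WT and KO wild type and Pou2f3-/-, points are mice, and the bar and whiskers are mean and SD (n = 3). In Ciart, Per2 and Per3 every knockout mouse lies below every wild-type mouse of its sex, in Per1 the genotypes overlap in both sexes, and in Bhlhe40 they separate in females and overlap in males.

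The Per genes, whose proteins form the core of the repressor complex, did not move together. Per1 (chr11:68986035-69002300, plus strand) had 47.4, 31.4 and 39.8 CPM in female wild type and 79.4, 38.7 and 60.7 CPM in female knockout. In males it had 43.5, 23.4 and 29.8 CPM in wild type and 28.6, 32.7 and 28.1 CPM in knockout. The genotypes overlapped in both sexes. The log2 differences were 0.59 ± 0.25 (SE) in females and -0.11 ± 0.25 in males, and neither passed (edgeR, adjusted p = 0.084 and 0.91). The female value was called with no low-count filter (adjusted p = 0.028) and without female knockout 2 (adjusted p = 0.023), in both cases as higher in the knockout. Over the alternatives it ran from log2 0.28 to 0.91, and it was called in 3 of them, including 1 with a replicate block.

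Per2 (chr1:91343700-91387069, minus strand) gave 19.4, 14.4 and 13.0 CPM in female wild type and 3.996, 4.37 and 5.98 CPM in female knockout. In males it gave 20.2, 10.8 and 15.6 CPM in wild type and 2.45, 4.64 and 6.72 CPM in knockout. No knockout mouse of either sex reached the lowest wild type. Per2 was 3.27-fold lower in female knockouts (log2 -1.71 ± 0.32, adjusted p = 0.0015) and 3.37-fold lower in males (log2 -1.75 ± 0.32, adjusted p = 0.046). The male call was lost in 14 of the alternatives, over which the value ran from log2 -2.13 to -1.45.

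Per3 (chr4:151081373-151129140, minus strand) gave 43.9, 41.1 and 35.9 CPM in female wild type, against 21.1, 17.2 and 26.1 CPM in female knockout. In males it gave 51.8, 31.5 and 43.5 CPM in wild type and 11.97, 8.14 and 10.6 CPM in knockout. The male knockouts were the lowest of the 4 groups and did not overlap any other. The fall was 1.88-fold in females (log2 -0.91 ± 0.19, edgeR adjusted p = 0.0034) and 4.13-fold in males (log2 -2.05 ± 0.20, adjusted p = 5.8e-04), and the male call held in every alternative.

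As shares of the family's summed level per kilobase of canonical transcript, Per1 went from 38.6% ± 4.43 (SD, n = 3) to 66.1% ± 6.76 in females and from 33.0% ± 2.00 to 64.2% ± 5.18 in males. These shares are a description and were not tested. In each sex the lowest knockout share of Per1 (61.6% and 59.1%) stood above the highest wild-type share (42.1% and 35.02%). Per2 went from 17.4% to 6.45% of the family in females and from 18.2% to 11.3% in males. Within a library the log2 ratio of Per1 to Per2 was 1.34 ± 0.25 in female wild type and 3.59 ± 0.62 in female knockout, and 1.05 ± 0.10 and 2.80 ± 0.73 in males, with no overlap between genotypes. This ratio does not depend on the library scaling.

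**Figure D2:**
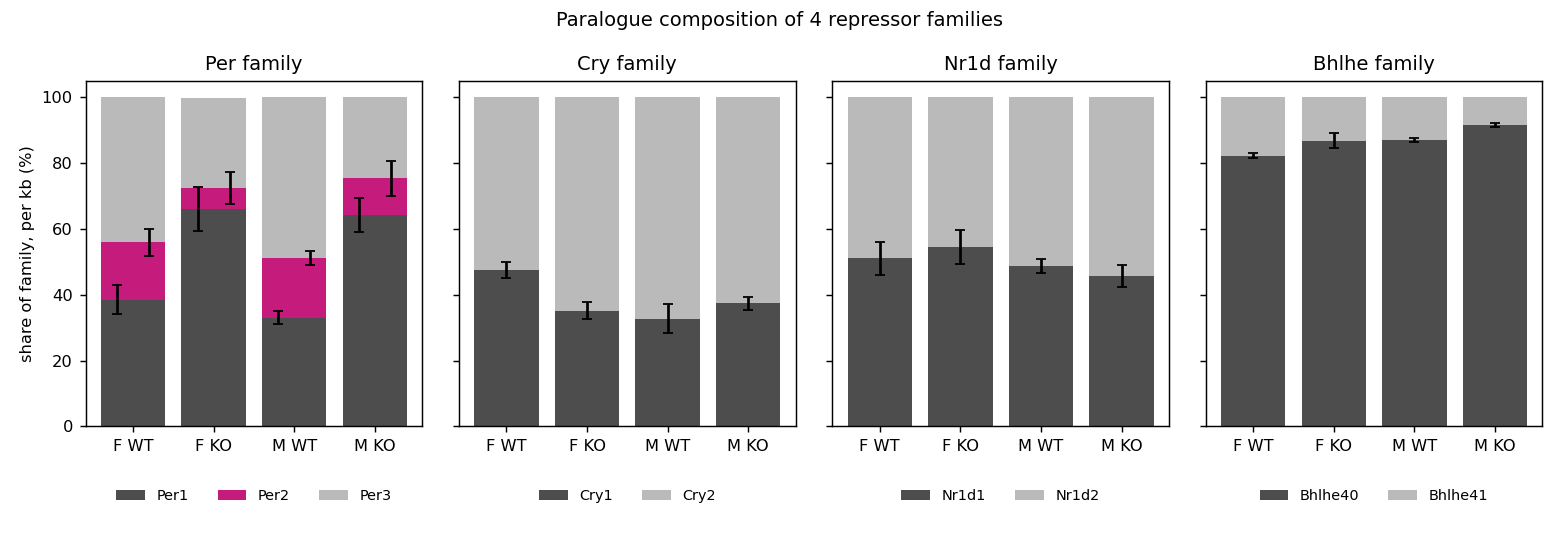
Share of each paralogue in the summed level of its family, in percent of CPM per kilobase of canonical transcript (bars: group means stacked to 100, whiskers: SD over 3 mice at the upper edge of each segment, offset for the Per family). F and M are female and male, WT and KO wild type and knockout. Per1 goes from 38.6% to 66.1% of the Per family in females and from 33.0% to 64.2% in males, while Nr1d1 and Nr1d2 stay near equal shares.

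The Cry genes encode the partners of PER in the repressor complex. Cry1 (chr10:84967560-85021252, minus strand) had 11.8, 9.69 and 8.60 CPM in female wild type, against 3.56, 3.56 and 4.65 CPM in female knockout. Male glands had 5.40, 3.89 and 3.51 CPM in wild type and 3.02, 3.67 and 4.07 CPM in knockout. Only female wild type stood apart, and the other 3 groups overlapped each other. Cry1 was 2.56-fold lower in female knockouts (log2 -1.36 ± 0.19, edgeR adjusted p = 4e-04), whereas the male difference of -0.25 ± 0.19 did not pass (adjusted p = 0.67).

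Cry2 (chr2:92233894-92264474, minus strand) had 15.7, 15.4 and 13.7 CPM in female wild type and 10.2, 8.39 and 10.9 CPM in female knockout. Male wild types had 13.6, 9.59 and 12.4 CPM and male knockouts 7.59, 8.08 and 8.67 CPM. The genotypes did not overlap in either sex. Females fell 1.52-fold (log2 -0.61 ± 0.14, edgeR adjusted p = 0.0047), and the male difference of -0.55 ± 0.14 was nearly as large but did not pass (adjusted p = 0.13, and 0.038 with DESeq2). Cry1 made up 47.5% ± 2.49 of the pair per kilobase in female wild type and 32.8% to 37.4% in the mean of each other group.

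Nr1d1 and Nr1d2, the repressors of Bmal1, were among the highest members per kilobase in every group. Nr1d1 (chr11:98658752-98666188, minus strand) had 62.8, 92.0 and 79.1 CPM in female wild type and 46.9, 37.6 and 56.3 CPM in female knockout. In males it had 50.01, 51.4 and 55.7 CPM in wild type and 26.7, 29.3 and 29.7 CPM in knockout. Knockouts lay below wild types in each sex. The falls were 1.66-fold in females (log2 -0.73 ± 0.15, edgeR adjusted p = 0.0027) and 1.83-fold in males (log2 -0.87 ± 0.15, adjusted p = 0.037), and the male call was lost in 12 alternatives, over which the value stayed between log2 -0.90 and -0.75. Nr1d1 overlaps Thra on the opposite strand over 3173 bases, and Thra had 490 to 1131 counts. The libraries were stranded, but whether the counting used strand is not given in the sources used here.

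Nr1d2 (chr14:4230545-4266624, plus strand) had 152.5, 149.6 and 158.7 CPM in female wild type and 75.6, 82.0 and 83.1 CPM in female knockout. In males it had 112.8, 120.7 and 111.4 CPM in wild type and 74.3, 62.7 and 75.9 CPM in knockout. The female groups stood far apart, with an SD of 4.66 CPM in wild type and 4.07 CPM in knockout. It fell 1.92-fold in females (log2 -0.94 ± 0.10, edgeR adjusted p = 1.5e-04) and 1.62-fold in males (log2 -0.70 ± 0.10, adjusted p = 0.013), the male call being lost in 7 alternatives while the value stayed between log2 -0.78 and -0.59. The 2 receptors kept near equal shares of their summed level per kilobase, Nr1d1 taking 51.1%, 54.6%, 48.7% and 45.7% in female wild type, female knockout, male wild type and male knockout.

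Ciart (chr3:95785815-95789991, minus strand), which binds BMAL1 and represses its activity, showed the largest fold of the 10. It had 3.97, 3.57 and 4.43 CPM in female wild type and 0.420, 0.403 and 0.772 CPM in female knockout. The male values were 3.43, 2.15 and 1.64 CPM in wild type and 0.436, 0.162 and 0.236 CPM in knockout. No knockout mouse reached the lowest wild type of its sex. The fall was 7.54-fold in females (log2 -2.91 ± 0.38, edgeR adjusted p = 2.7e-04) and 8.61-fold in males (log2 -3.11 ± 0.39, adjusted p = 0.0041). The male call was lost with the authors' own factors, taken per gene and library from their normalized counts (log2 -2.58, edgeR adjusted p = 0.086). It was also lost without the 2 adipocyte-high libraries (log2 -2.82, edgeR adjusted p = 0.058). Ciart is also the thinnest member, with 10 to 258 counts per library, and the antisense gene C920021L13Rik, with 44 to 149 counts, overlaps the whole of it (4177 bases).

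Bhlhe40 and Bhlhe41 differed in males. Bhlhe40 (chr6:108636626-108644502, plus strand) had 68.1, 66.6 and 69.9 CPM in female wild type and 30.6, 27.9 and 24.1 CPM in female knockout. In males it had 99.6, 92.9 and 92.8 CPM in wild type and 100.7, 67.9 and 90.8 CPM in knockout, and the male genotypes overlapped. Females fell 2.48-fold (log2 -1.31 ± 0.14, edgeR adjusted p = 1.3e-04), and the male difference of -0.14 ± 0.13 did not pass (adjusted p = 0.75). Without male knockout 2 the male difference was 0.01.

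Bhlhe41 (chr6:145803969-145811430, minus strand) had 20.4, 18.7 and 18.8 CPM in female wild type and 4.97, 5.29 and 5.83 CPM in female knockout. The male values were 19.2, 17.1 and 19.3 CPM in wild type and 11.1, 8.95 and 10.8 CPM in knockout. The 3 levels were distinct: both wild-type groups together, then male knockout, then female knockout. It fell 3.59-fold in females (log2 -1.84 ± 0.11, edgeR adjusted p = 2e-06) and 1.80-fold in males (log2 -0.85 ± 0.11, adjusted p = 0.0041). The male call was lost only with the Muc19-high or the adipocyte-high pair left out, at log2 -0.82 (adjusted p = 0.057) and -0.74 (adjusted p = 0.058).

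**Figure D3:**
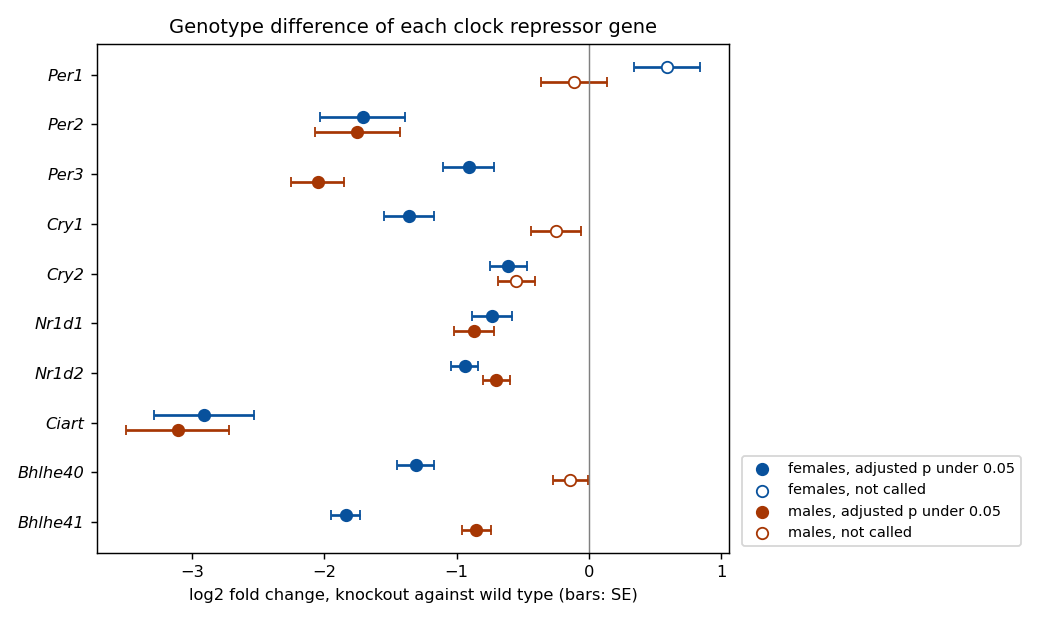
log2 fold change of each member, knockout against wild type, in females (blue) and males (orange-brown), with SE from edgeR. Filled points have an adjusted p under 0.05. The 9 filled female points and the 6 filled male points all lie below 0, from -0.61 for Cry2 in females to -3.11 for Ciart in males.

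Whether the genotype difference itself depended on sex was tested as the female minus the male log2 fold change. It was called in 4 of 10 members, where 25.7% of genes tested were called in either direction. That share was 12.9% without male wild type 1, 15.7% without male wild type 3 and 16.2% without male knockout 3, with 4 members called in each, and 6.21% and 10.9% with the Muc19-high or the adipocyte-high pair left out, with 3 members called in each. Bhlhe40 fell more in females (difference -1.17 ± 0.19, edgeR adjusted p = 0.0036), as did Bhlhe41 (-1.0 ± 0.15, adjusted p = 0.0031) and Cry1 (-1.10 ± 0.27, adjusted p = 0.013). Per3 fell more in males (1.14 ± 0.28, adjusted p = 0.013). The Per3 call was lost with the 2 Muc19-high libraries left out (0.95, adjusted p = 0.072) and with the 2 adipocyte-high libraries left out (0.87, adjusted p = 0.078). In the other 6 members the difference between the sexes was not detectable, with an SE of 0.14 (Nr1d2) to 0.52 (Ciart).

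Sex alone also separated members. Between the wild types, 4 of 10 were called against 36.5% of genes tested, so the share is close to that of the table. Cry1 was 2.35-fold lower in males (log2 -1.23 ± 0.19, edgeR adjusted p = 2.7e-04), Nr1d1 1.49-fold lower and Nr1d2 1.34-fold lower, while Bhlhe40 was 1.40-fold higher (log2 0.48 ± 0.13, adjusted p = 0.013). The Nr1d2 difference of -0.42 became 0.01 with the authors' factors per gene and library. Between the knockouts, 5 of 10 were called against 43.5% of genes, and 8 against 44.9% with upper-quartile normalization. Bhlhe40 was 3.14-fold higher in males (log2 1.65 ± 0.14) and Bhlhe41 1.92-fold higher (log2 0.94 ± 0.11). Per1 was 2.00-fold, Per3 2.10-fold and Nr1d1 1.64-fold lower in males. The Per1 call was lost without female knockout 1 (log2 -0.68, edgeR adjusted p = 0.057).

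Per kilobase of canonical transcript, the members differed widely in level. In female wild type the order was Nr1d1 (28.7 ± 5.38 CPM per kb), Nr1d2 (27.1 ± 0.821), Bhlhe40 (14.5 ± 0.345), Per3 (6.70 ± 0.678), Per1 (5.91 ± 1.19), Cry2 (3.61 ± 0.260), Cry1 (3.29 ± 0.524), Bhlhe41 (3.13 ± 0.153), Per2 (2.67 ± 0.574) and Ciart (2.02 ± 0.219). The neighbours Nr1d1 and Nr1d2 did not differ beyond their spread, nor did Per3 and Per1, nor any neighbours in the order from Cry2 down to Ciart. Ciart was the lowest in all 4 groups. In male knockout Bhlhe40 led at 18.4 ± 3.58 CPM per kb, above Nr1d2 at 12.5 ± 1.27 and Nr1d1 at 10.5 ± 0.592. In female knockout Per1 (8.90 ± 3.05) and Bhlhe40 (5.87 ± 0.693) overlapped.

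The early and late repressors were then compared within each library, since a shift of phase would move them unequally. The early mean was taken over the 5 genes Nr1d1, Ciart, Nr1d2, Per3 and Per1, and the late mean over the 3 genes Per2, Cry2 and Cry1, both in log2 CPM and with no test. Both means were lower in the knockout in both sexes. The early mean differed by -0.99 in females and -1.33 in males, and the late mean by -1.22 and -0.86. The early minus late value was 1.31, 1.49 and 1.72 in female wild type and 1.87, 1.60 and 1.75 in female knockout, which overlapped. In males it was 1.56, 1.76 and 1.60 in wild type and 1.71, 0.94 and 0.86 in knockout, which overlapped through male knockout 1. The difference was 0.23 in females and -0.47 in males. Once Per1 was left out of the early genes it turned to -0.15 in females and was -0.79 in males. The female groups still overlapped then, and the male ones no longer did, at 1.47, 1.78 and 1.56 in wild type and 1.41, 0.51 and 0.53 in knockout.

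Single pairs of an early and a late gene differed. The ratio of Per1 to Per2, given above, was higher in the knockout by 2.25 in females and by 1.74 in males on the log2 scale, with no overlap of genotypes. The log2 ratio of Nr1d1 to Cry1 was 2.41, 3.24 and 3.20 in female wild type and 3.71, 3.39 and 3.59 in female knockout, so knockouts were higher. In males it was 3.20, 3.71 and 3.98 in wild type and 3.13, 2.99 and 2.86 in knockout, so knockouts were lower. Within the early genes the ratio of Ciart to Nr1d1 was lower by 2.15 in female knockouts and by 2.12 in male knockouts on the log2 scale.

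**Figure D4:**
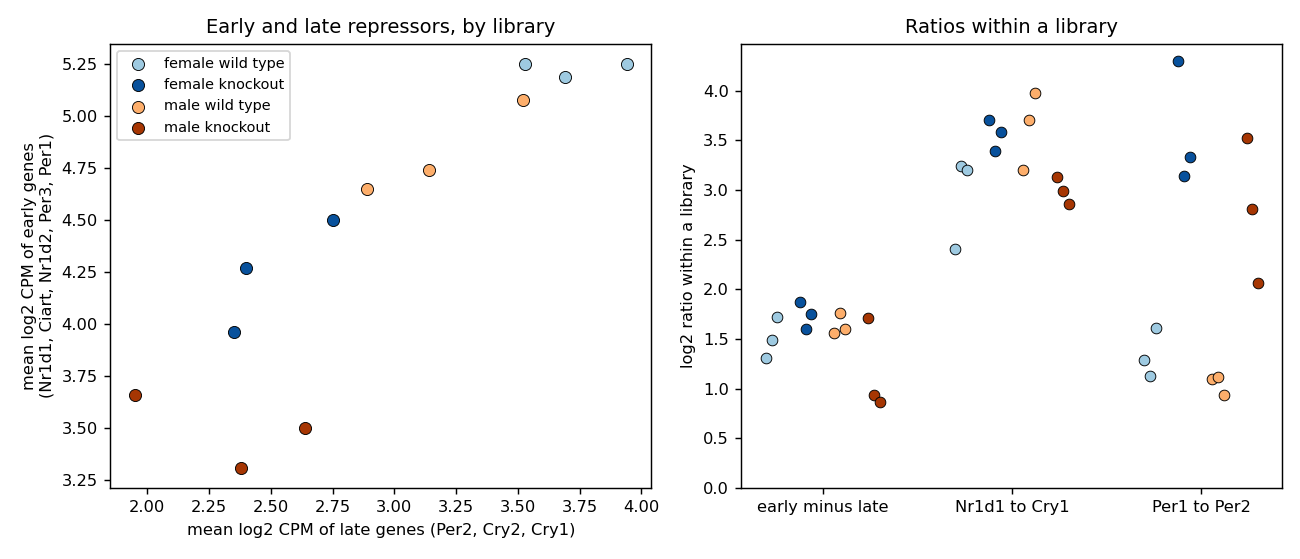
Left, mean log2 CPM of the early genes against that of the late genes, 1 point per library. Right, the early minus late value and the log2 ratios of Nr1d1 to Cry1 and of Per1 to Per2 within each library, with groups in the same colours and in the order female wild type, female knockout, male wild type, male knockout. All 6 knockout libraries lie below and to the left of their wild types, and of the 3 measures at right, Per1 to Per2 separates the genotypes the same way in both sexes while the other 2 do not.

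The other clock genes were counted from lists of activators, output factors and modifiers. Among the activators, Bmal1 and Npas2 rose in both sexes, where 17.6% of genes tested were called higher in females and 0.101% in males. Bmal1 was 11.0-fold higher in female knockouts (log2 3.45 ± 0.21, edgeR adjusted p = 2e-06) and 7.31-fold higher in males (log2 2.87 ± 0.20, adjusted p = 1.4e-05). Npas2, the relative of Clock, was 11.5-fold higher in females (log2 3.52 ± 0.22) and 9.26-fold higher in males (log2 3.21 ± 0.21). Rora, which activates Bmal1 at the elements that NR1D1 and NR1D2 occupy, fell in females (log2 -0.44 ± 0.13, adjusted p = 0.018) and not detectably in males (-0.07 ± 0.13). Clock had log2 differences of 0.25 ± 0.10 and 0.30 ± 0.10, and Clock, Bmal2 and Rorb were not called in either sex. Over both sexes Clock was called higher (log2 0.28 ± 0.07, edgeR adjusted p = 0.023). Bmal1, Npas2 and Clock were thus opposite in sign to the 9 repressors that fell over both sexes.

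The PAR bZIP factors Dbp, Tef and Hlf activate through D-boxes and Nfil3 represses there. All 4 were called in both sexes, 3 lower and 1 higher. Over all genes tested, 19.3% were called lower and 17.6% higher in females, and 0.134% and 0.101% in males. Dbp was 5.97-fold lower in females (log2 -2.58 ± 0.18) and 9.02-fold lower in males (-3.17 ± 0.19). Tef had log2 differences of -1.41 ± 0.13 in both sexes, and Hlf of -1.0 ± 0.20 and -1.34 ± 0.20. Nfil3 rose, with 0.60 ± 0.22 in females (edgeR adjusted p = 0.047) and 1.30 ± 0.22 in males (adjusted p = 0.037).

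Of 12 genes that modify or degrade the repressors, 5 were called lower and 2 higher in females and 1 lower in males. The shares over all genes tested were 19.3% lower and 17.6% higher in females and 0.134% lower in males. They hold for the edgeR calls per sex that follow. DESeq2 called 22.1% of the genes it tested in females and 1.26% in males, in either direction. For an unadjusted p under 0.05 the share over all genes is not given here, so those counts have no background. The one called in both sexes was Usp2, a deubiquitinase of clock proteins, at log2 -2.28 ± 0.14 and -0.82 ± 0.13. Usp2 lies 0.86 Mb from the targeted gene on chromosome 9, and a part of that position in its value was not tested. Of 9 rhythmic output genes tested, 5 fell in females and 1 in males, which was Tspan4 (log2 -1.90 ± 0.14 and -1.19 ± 0.14). At an unadjusted edgeR p under 0.05 there were 6 in each sex, all lower in females and in both directions in males. DESeq2 called 6 in females and 2 in males, in either direction. Of 7 glucocorticoid response genes, a class to which Per1 also belongs, edgeR called 2 in females, both lower, and 0 in males. In either direction, 5 in females and 3 in males had an unadjusted edgeR p under 0.05, and DESeq2 called 4 and 2. Those 3 male genes were all higher in the knockout, and the 5 female ones went in both directions. Of 8 immediate early genes edgeR called 0 in either sex. At an unadjusted edgeR p under 0.05 there was 1 in females, lower in the knockout, and 5 in males, all higher. DESeq2 called 0 and 1. For the mean over both sexes edgeR called 2 higher (6.2% of genes tested), and for the interaction 2 (25.7% in either direction).

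Across the 12 libraries, with log2 CPM centred within each sex, every pair among the 9 members other than Per1 correlated positively (Pearson r from 0.50 for Per3 with Bhlhe40 to 0.97 for Nr1d2 with Bhlhe41). Per1 had r from -0.48 (Bhlhe40) to -0.02 (Per3) with the others. These values are descriptions, since the libraries share genotype and scaling. The non-member most like Ciart was Tef (r = 0.989), followed by Homer2 and Dbp. Bhlhe41 was most like Usp2 (0.984), Nr1d2 like Aldh1a7 (0.980), Bhlhe40 like Mlec (0.979), Cry1 like Slc7a1 (0.958) and Per3 like Frmpd1 (0.948). Cry2 was most like Stk35 (0.945), Nr1d1 like Dbp (0.942) and Per2 like Hlf (0.930). Per1 was most like Nepro (0.931). None of its 3 nearest genes belonged to the clock lists, and the same held for Cry1, Cry2, Nr1d2 and Bhlhe40.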

How the data were processed

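SMG RNA was sequenced by the authors from stranded, ribosomal RNA-depleted libraries. The authors quantified transcripts with Salmon 1.10.1 against Gencode M35 (GRCm39) and deposited estimated counts per gene (50.4% of the values above 0 were whole within 0.001). They also deposited normalized counts, a signal table that was used here only to derive their factors. Each factor was the ratio of estimated to normalized count for a gene in a library, so it can differ between genes of the same library. Estimated counts were rounded, genes filtered by expression, scaled by TMM and fitted in 1 edgeR 4.0.16 quasi-likelihood model with 4 group means (R 4.3.3), with Benjamini-Hochberg adjustment over 17893 genes. CPM values use these factors, and log2 CPM a prior count of 2. Scripts were tested on simulated data. Names, positions and transcript lengths came from Gencode M39 (55563 of 56065 IDs matched). Alternatives were other normalizations, filters, DESeq2 1.42.0, separate fits, a replicate block and leaving out libraries. The members and lists were chosen with earlier results of these data known. All members were named. Other clock genes were named if called in both sexes or if they were activators or PAR bZIP factors, and the 3 genes most alike were listed per member. Counting error was not separated from the spread between mice. It weighs more where levels are low, as in Ciart (10 to 258 counts) and in Bmal1 and Npas2 of wild types. It also weighs more where the spread is narrow, as in Bhlhe40 of female wild types (68.2 ± 1.62 CPM, SD). An activator and a cell type marker on the lists are not reported here.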

Additional observations from a re-analysis of the deposited data

Results flagged for a closer look

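In 4 members the genotype difference itself differed between the sexes, by the interaction term of the edgeR model, which called 25.7% of all genes tested. As the female minus the male log2 fold change, the values were 1.14 for Per3, -1.10 for Cry1, -1.17 for Bhlhe40 and -1.0 for Bhlhe41. Per3 was lower in the knockout by more in males, and the other 3 by more in females. All 4 calls held in each leave-one-out fit, and that of Per3 was lost with the Muc19-high or the adipocyte-high pair of libraries left out (adjusted p = 0.072 and 0.078).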

How the results depend on the processing

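In females, 9 or 10 members were called in every alternative, and the mean over both sexes gave 9 in each. The male count was 6, with 3 to 6 when 1 library was left out, and 2 or 1 with the 2 libraries highest in Muc19 or in adipocyte markers left out together. The number called between the knockouts was 5, and 8 with upper-quartile normalization, which moved the median log2 difference of all genes from -0.02 to -0.18. The cause of these changes was not tested. Among called or otherwise reported values, the male Per1 difference changed sign (-0.30 to 0.16 when 1 library was left out). So did the male Bhlhe40 difference (-0.26 to 0.01 likewise, and 0.03 without the adipocyte-high libraries). The only others were the Nr1d2 difference between wild types (0.01 with the authors' factors per gene and library) and the female early minus late difference (-0.15 without Per1). Among the interaction values, 12 of 100 changed sign in other settings and 11 of 120 with 1 library left out, all of them in members that were not called. Between the sexes, members that were not called also changed sign, namely Per2 (3 fits) and Per3 (5) in wild types and Per2 (7), Cry1 (2) and Nr1d2 (1) in knockouts. The replicate numbers did not pair the mice (r from -0.13 to 0.09), and a replicate block gave 10 members in females, Per1 being called at 0.56, 5 in males, 9 for the mean and 4 for the interaction. With 3 mice per group and no collection hour given, neither phase nor amplitude can be read from these levels.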
